A study of Mus musculus with 12 samples.

Results

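The genes described here are the classical axon guidance ligands and receptors of the semaphorin, ephrin and netrin families, measured in electroporated cells of the embryonic mouse medial telencephalon. They were picked by symbol, with earlier results of these data known. The symbols cover semaphorins of classes 3 to 7, plexins, neuropilins, ephrins, Eph receptors, netrins, netrin-G proteins, the Unc5 receptors, Dcc and Neo1. The RefSeq gene table held 66 such symbols, of which 65 had a named probe. After probes close to background were removed, 62 of 15370 genes remained. Epha6, Epha10 and Ntn5 were left out because their probes were well above background on at most 1 of 12 arrays, and the antisense gene Plxna4os1 had no named probe.

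In the study, CD-1 embryos were electroporated in the medial telencephalon at E11.5, and cells expressing nuclear EGFP from a co-electroporated vector were sorted 24 hours later, at E12.5. There were 4 groups of 3 arrays: control siRNAs, siRNA set 1 against Dmrt3 and Dmrta2, siRNA set 2 against the same genes, and an expression plasmid for Dmrta2. All groups share the strain, stage, electroporation and sort. Dmrt3 and Dmrta2 are DM-domain transcription factors of the dorsomedial telencephalon. The labels do not say how many embryos were pooled, which siRNAs, if any, went in with the Dmrta2 plasmid, or where in the target transcripts the siRNAs bind. The design text calls the replicates independent without naming what was separate, so p-values measure the spread between these samples.

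Each array was a one-colour Agilent array with 43020 spots besides the control spots. None of these was saturated, and 67.1 to 72.2% of them were well above background. Within a group the arrays correlated at 0.979 to 0.994 and between groups at 0.976 to 0.991. Arrays with the same replicate number lay on the same slide, and each group always held the same position on it, so position and group cannot be told apart. The targeted genes checked the labels: the Dmrt3 probe stood at 49.5% of the control level with set 1 and 57.7% with set 2, and the Dmrta2 probe at 65.5% and 80.8%. None of these 4 differences passed limma's test over all genes (adjusted p = 0.19 to 0.495). With slides fitted as a replicate block, Dmrt3 passed in set 1 and in the average of both sets (adjusted p = 0.041 and 0.028). The Dmrta2 probe was not higher on the arrays labelled overexpression: there it stood at 71.0% of the control level, with all 3 arrays below all 3 controls (adjusted p = 0.595, limma). Whether that probe lies in the part of the gene carried by the plasmid is not given in the sources used here, so it does not check that label, and directions are given for the arrays as labelled. The telencephalic marker genes Emx1, Emx2, Lhx2 and Otx1 were well above background on all 12 arrays, and Six3 on 10.

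Semaphorins are secreted or membrane-bound ligands of the plexin receptors, and most of the secreted class 3 members need a neuropilin as co-receptor. Ephrins are membrane-tethered ligands of the Eph receptor tyrosine kinases, the A ligands by a lipid anchor and the B ligands by a transmembrane segment. Netrins attract growing axons through Dcc and repel them through Unc5 receptors, and in the developing telencephalon these families steer cortical and thalamic axons and help to keep cell territories apart.

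Promoter sequence is shown for the members that passed the test in the comparison of overexpression with the siRNA sets, Unc5b, Epha8 and Sema3a, because they share a direction or oppose each other there. For Sema3f no promoter is shown. Each line gives the 250 bases before the RefSeq transcript start on the gene's strand (GRCm38.p6), 5′ to 3′, with CpG dinucleotides in capitals. The windows are chr10:60831582-60831831 on the minus strand for Unc5b, chr4:136956817-136957066 on the minus strand for Epha8, and chr5:13396534-13396783 on the plus strand for Sema3a.
Unc5b: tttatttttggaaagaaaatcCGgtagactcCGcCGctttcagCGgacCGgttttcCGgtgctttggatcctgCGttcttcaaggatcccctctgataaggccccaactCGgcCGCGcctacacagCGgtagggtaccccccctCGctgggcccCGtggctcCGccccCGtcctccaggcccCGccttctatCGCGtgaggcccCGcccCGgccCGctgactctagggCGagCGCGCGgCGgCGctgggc
Epha8: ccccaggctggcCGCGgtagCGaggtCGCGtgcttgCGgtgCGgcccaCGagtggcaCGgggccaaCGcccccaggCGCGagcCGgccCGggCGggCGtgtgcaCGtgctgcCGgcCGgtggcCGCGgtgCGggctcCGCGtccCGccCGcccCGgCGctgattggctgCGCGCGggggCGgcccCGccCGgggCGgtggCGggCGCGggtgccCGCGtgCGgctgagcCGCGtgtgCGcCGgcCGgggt
Sema3a: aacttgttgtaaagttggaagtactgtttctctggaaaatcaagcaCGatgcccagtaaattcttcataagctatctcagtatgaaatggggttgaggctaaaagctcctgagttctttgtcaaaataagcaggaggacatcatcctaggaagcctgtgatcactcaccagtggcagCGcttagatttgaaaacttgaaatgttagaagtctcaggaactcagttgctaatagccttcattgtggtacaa
The Epha8 window held 46 CpG dinucleotides and 84% G or C, and the Unc5b window 27 and 66.8%. The Sema3a window held 2 CpG dinucleotides and 40.8% G or C. Over windows of 300 bases, which add 50 bases after the start, the counts were 56 for Epha8, 36 for Unc5b and 2 for Sema3a. At that length the 70 windows of 56 members had a median of 20.5 CpG dinucleotides and all windows of the table a median of 7. Epha6, Epha10 and Ntn5, left out of the expression results, are among these 56 members. The letters ACANTGT, the core shared by binding sites of doublesex-type factors, were searched. They are their own reverse complement, so both strands are covered. They occurred in 3 of 70 member windows (4.29%), those of Plxna2, Plxnb3 and Sema4d, against 7.54% of all 32851 windows, and in none of the 3 windows printed here.

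Levels are given as log2 signal with each array's 75th percentile at 0, and differences as log2 differences with their standard error from limma. Against the control arrays, no guidance gene passed an adjusted p of 0.05 with both siRNA sets averaged, with set 1, with set 2 or on the overexpression arrays; of all genes, 0.703%, 0.215%, 0.943% and 0.28% passed. The counts at an unadjusted p under 0.05 were 7, 8, 7 and 7 of 62 in that order, against 12%, 9.96%, 12.8% and 4.48% of all genes. For the difference between set 2 and set 1, 0 guidance genes passed the adjusted test (limma; all genes 0.0781%) and 7 reached an unadjusted p under 0.05 (all genes 9.75%). Comparing overexpression with the mean of both siRNA sets, 4 of 62 guidance genes (6.45%) passed, 3 higher and 1 lower, against 2.15% of all genes. They were Unc5b, Sema3f and Epha8, higher with overexpression (1.32% of all genes), and Sema3a, lower (0.833% of all genes). At an unadjusted p under 0.05 the count was 15, or 24.2% of the guidance genes and 13.3% of all genes. The median difference over the 62 genes was 0.09 there, against 0.01 over all genes. Groups whose arrays did not overlap were counted in the same way. This held for 2 guidance genes with the siRNA average (all genes 5.33%), 7 with set 1 (14.6%) and 7 with set 2 (18%), out of 62 each time. It held for 7 with overexpression against the controls, all of them higher (7.63% of all genes in either direction and 5.92% higher). Between set 2 and set 1 it held for 9 (13.9%), and between overexpression and the siRNA sets for 9 (7.14%). With the slide entered as a replicate block, Sema3a passed the adjusted test in the siRNA average (1.52% of all genes) and in set 2 (2.36%), Unc5b in overexpression against the controls (0.364%), and the same 4 genes in the last contrast (3.45%). In that contrast neither arm is the control, so a difference can come from either side, and the values of each arm against the control are given gene by gene.

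**Figure D1:**
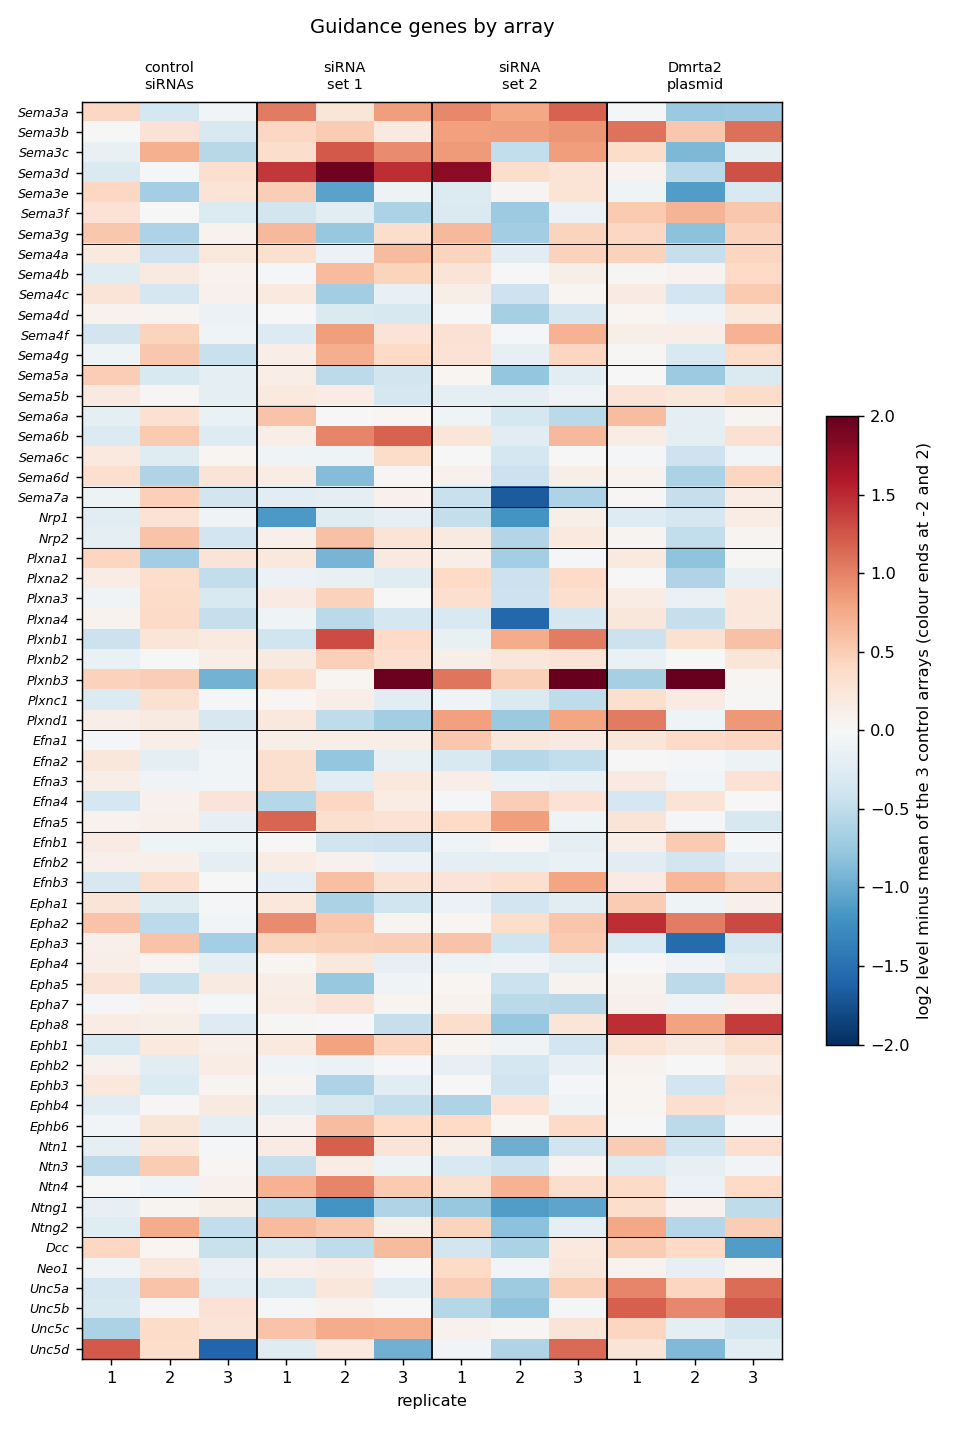
Heat map of the 62 guidance genes (rows, ordered by family, lines between families) on the 12 arrays (columns, 3 replicates a group), as log2 level minus the mean of the 3 control arrays, with the colour ending at -2 and 2. Most rows are pale; Unc5b, Epha8 and Epha2 are red on the 3 overexpression arrays, and Sema3a is red on the 6 siRNA arrays and Ntng1 blue on them.

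Among the class 3 semaphorins, Sema3f, a secreted repellent that signals mainly through neuropilin-2, stood at 0.64, 0.34 and 0.09 on the control arrays of replicates 1 to 3. It stood at -0.01, 0.13 and -0.27 with siRNA set 1, at 0.08, -0.36 and 0.25 with set 2, and at 0.88, 1.03 and 0.90 with overexpression. The overexpression arrays were above all others, and siRNA and control arrays overlapped. Against the mean of the siRNA sets Sema3f was 0.97 ± 0.16 higher (SE, 3 against 6 arrays; 1.96-fold; adjusted p = 0.0137, limma). On the slides the difference was 0.85, 1.15 and 0.91. Against the controls the difference was 0.58 ± 0.19 (adjusted p = 0.548) and that of the siRNA average was -0.39 ± 0.16 (adjusted p = 0.374). The call against the siRNA sets was lost when any of the 3 overexpression arrays was left out (adjusted p = 0.0546, 0.0795 and 0.072 without replicates 1, 2 and 3).

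Sema3a, the prototype secreted semaphorin that collapses growth cones through neuropilin-1 and A-type plexins, ran the other way. Its level was -2.29, -3.07 and -2.77 on the control arrays and -2.73, -3.45 and -3.43 with overexpression. With set 1 it was -1.67, -2.47 and -1.88, and with set 2 -1.75, -1.93 and -1.53. All 6 siRNA arrays were above all 3 overexpression arrays, whose range overlapped that of the controls. The difference of overexpression from the siRNA sets was -1.33 ± 0.24 (3 against 6 arrays; the siRNA arrays were 2.52-fold higher; adjusted p = 0.0182, limma). It was -1.02, -1.25 and -1.73 on the slides. The siRNA average was 0.84 ± 0.24 above the controls (adjusted p = 0.164, or 0.038 once slides were fitted as a replicate block), and set 2 was 0.97 ± 0.27 above them (adjusted p = 0.149, or 0.0332 with the block). Overexpression stood at -0.50 ± 0.27 from the controls (adjusted p = 1). A second Sema3a probe gave -0.955 ± 0.213 in the contrast with the siRNA sets and missed the threshold (adjusted p = 0.0554). Leaving out overexpression replicate 2, overexpression replicate 3 or set 1 replicate 3 also ended the call (adjusted p = 0.11, 0.109 and 0.0502). Against the controls the second probe gave smaller differences, fitted without the block. They were 0.45 ± 0.21 for the siRNA average and 0.43 ± 0.25 for set 2 (adjusted p = 0.472 and 0.55, limma).

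The other class 3 members did not pass any adjusted test. Sema3b, a secreted ligand of neuropilins, was at -2.93, -2.66 and -3.24 on the control arrays and at -1.86, -2.40 and -1.84 with overexpression. It was at -2.53, -2.43 and -2.76 with set 1 and at -2.12, -2.11 and -2.05 with set 2. Controls were thus below all overexpression and all set 2 arrays and overlapped with set 1. The differences from the controls were 0.91 ± 0.19 with overexpression (adjusted p = 0.122) and 0.85 ± 0.19 with set 2 (adjusted p = 0.0655, limma). Without overexpression replicate 2 they passed the threshold (adjusted p = 0.0478 and 0.0474). Set 2 was also 0.48 ± 0.19 above set 1 with no overlap (adjusted p = 0.428).

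Sema3d, another secreted class 3 semaphorin, was near background: none of the 3 control arrays was well above it, against 3 arrays of set 1, 1 of set 2 and 1 of overexpression. Its level was -5.78, -5.25 and -5.71 with set 1 and -7.47, -7.22 and -6.87 on the controls. The gene was kept only because of the 3 set 1 arrays, since the other 9 gave 2 above background where 3 were required. It therefore had to be bright with set 1, and these levels are a description without a test. The set 1 counts given earlier include it. So does the count at an unadjusted p under 0.05 for the siRNA average, which holds the set 1 arrays. Markers of mesenchyme and meninges, of which 5 of 10 were kept, summed to 1.94 to 7.12 on the set 1 arrays and 1.01 to 1.47 on the controls (linear signal over the 75th percentile). Among the list, Twist1, Foxc1, Foxd1, Tbx18 and Lum were too dim to be kept, and the part of such cells in the Sema3d difference was not tested. In these sorted bulk samples, fewer cells of a type and less RNA per cell cannot be told apart.

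Sema3c, another class 3 member, differed by -0.85 ± 0.40 between overexpression and the siRNA sets and varied strongly within groups (adjusted p = 0.401, limma).

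The membrane-bound and short-range semaphorins of classes 4 to 7 gave no call. In the contrast of overexpression with the siRNA sets the 6 class 4 genes ranged from -0.27 to 0.33, and the 4 class 6 genes from -0.40 to 0.22. A second probe of Sema6d gave -1.26 ± 0.51 where the brighter probe gave 0.11, and neither passed. Over the guidance genes, 17 had several kept probes and 45 had 1. The class 4 gene with the lowest p against the controls was Sema4d, a ligand of plexin-B1, at -0.18, -0.20 and -0.36 on the controls. It was at -0.25, -0.53 and -0.57 with set 1 and -0.24, -0.91 and -0.58 with set 2, and the groups overlapped (difference -0.27 ± 0.15, adjusted p = 0.538, limma).

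Sema5b, a transmembrane semaphorin with thrombospondin repeats, was at 1.66, 1.63 and 1.77 with overexpression, just above its highest siRNA value of 1.59. The siRNA arrays of set 1 were at 1.59, 1.55 and 1.07 and those of set 2 at 1.20, 1.22 and 1.32. The difference of 0.36 ± 0.13 did not pass (adjusted p = 0.245), and a second Sema5b probe gave 0.23 ± 0.29. Between the siRNA sets, Sema6a, a transmembrane ligand of A-type plexins, was lower with set 2 (-2.45, -2.70 and -2.89) than with set 1 (-1.79, -2.35 and -2.31), by 0.53 ± 0.24 on the log2 scale (adjusted p = 0.511). Sema7a, the lipid-anchored semaphorin that binds plexin-C1 and integrins, was lower with set 2 than with set 1 or on the controls. It stood at 1.41, 0.20 and 1.24 with set 2, at 1.63, 1.68 and 1.94 with set 1 and at 1.75, 2.33 and 1.48 on the controls. The set 2 arrays lay below both other groups, with differences of -0.90 ± 0.32 from the controls (adjusted p = 0.252) and -0.80 ± 0.32 from set 1 (adjusted p = 0.447, limma). Replicate 2, at 0.20, was the low array of set 2, and without it the differences were -0.53 and -0.42.

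No plexin or neuropilin passed the test in any comparison. Over the 9 plexins, differences of overexpression from the siRNA sets ran from -0.46 for Plxnb3, which was well above background on 3 of 12 arrays, to 0.63 for Plxnd1. Plxnb2, a receptor of class 4 semaphorins abundant in neural progenitors, was at 4.36, 4.67 and 4.52 with set 1 and at 4.05, 4.19 and 4.32 on the controls. These groups did not overlap and differed by 0.33 ± 0.13 (adjusted p = 0.416, limma). Nrp1, the co-receptor of Sema3a, was at -2.91, -2.41 and -2.77 on the controls, -3.85, -2.94 and -2.86 with set 1 and -3.18, -3.89 and -2.59 with set 2. The siRNA average was -0.52 ± 0.30 from the controls with overlapping groups (adjusted p = 0.561). Nrp2, the co-receptor of Sema3f, differed from the controls by 0.12 with the siRNA average and -0.13 with overexpression, neither past the test.

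**Figure D2:**
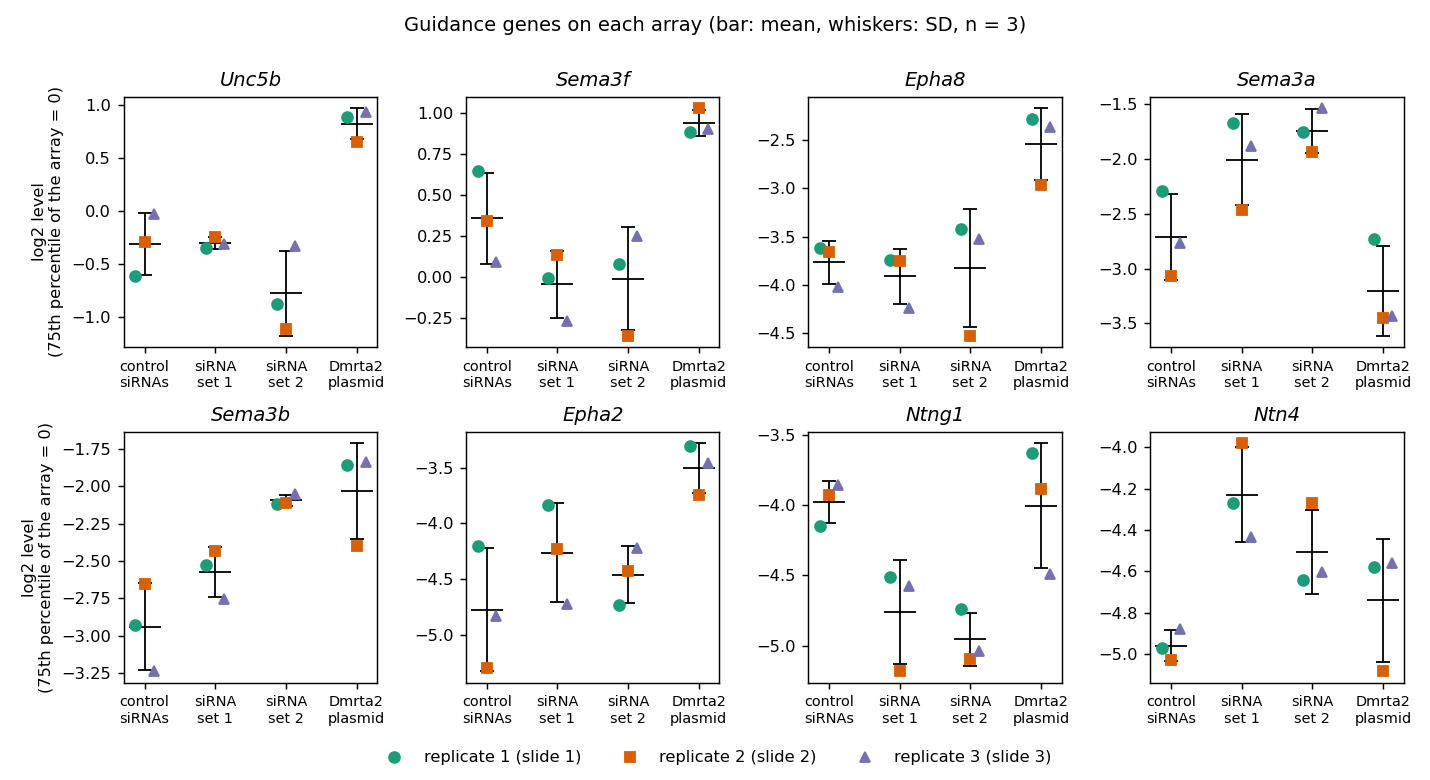
Log2 level of 8 guidance genes on each array (75th percentile of the array at 0) by group, with 1 symbol per replicate number, which is the slide; the bar is the group mean and the whiskers the SD (n = 3). Unc5b and Sema3f are above all other arrays with overexpression, Sema3a has its highest group means with the siRNA sets, and Ntng1 is lower on the siRNA arrays than on the controls.

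No ephrin passed either. Efna1, a lipid-anchored ligand of EphA receptors, was at -1.61, -1.46 and -1.69 on the controls, at -1.34, -1.20 and -1.16 with overexpression and at -1.05, -1.36 and -1.40 with set 2. Both groups lay above the controls, by 0.35 ± 0.12 (adjusted p = 0.654) and 0.32 ± 0.12 (adjusted p = 0.3, limma), while set 1, at -1.47, -1.45 and -1.45, overlapped with them. Efnb2, a transmembrane ligand of EphB receptors and EphA4, was at 2.24, 2.24 and 1.95 on the controls. With overexpression it was at 1.91, 1.78 and 1.97, which overlapped (difference -0.26 ± 0.12, adjusted p = 1). The other ephrins differed between overexpression and the siRNA sets by -0.51 (Efna5) to 0.38 (Efnb1).

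Of the Eph receptors, Epha8, which binds ephrin-A ligands, was called. It stood at -2.29, -2.97 and -2.37 with overexpression, against -3.62, -3.66 and -4.03 on the controls. The set 1 arrays were at -3.74, -3.75 and -4.24 and the set 2 arrays at -3.42, -4.53 and -3.53. The 3 overexpression arrays were thus above the other 9. The difference from the siRNA sets was 1.33 ± 0.26 (3 against 6 arrays; 2.51-fold; adjusted p = 0.0269, limma), and 1.30, 1.17 and 1.52 on the slides. Against the controls it was 1.23 ± 0.30 (adjusted p = 0.228), while the siRNA average differed from the controls by -0.10 ± 0.26 (adjusted p = 0.944). The call against the siRNA sets was lost without overexpression replicate 1, overexpression replicate 3 or set 1 replicate 3 (adjusted p = 0.125, 0.141 and 0.065) and when the control arrays did not enter the fit (adjusted p = 0.0606).

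Epha2, which ephrin-A1 binds, was at -3.31, -3.75 and -3.46 with overexpression and at -4.20, -5.30 and -4.83 on the controls. The set 1 arrays were at -3.84, -4.23 and -4.72 and the set 2 arrays at -4.73, -4.42 and -4.22, so that the overexpression arrays were again above all others. The difference was 1.27 ± 0.29 from the controls (2.42-fold, adjusted p = 0.181) and 0.86 ± 0.25 from the siRNA sets (adjusted p = 0.137, limma), and neither passed. Epha3, at -1.08 ± 0.34 from the siRNA sets (adjusted p = 0.169), overlapped between these groups. Ephb6, a member of the family without kinase activity, was at 1.29, 0.75 and 1.23 with overexpression. It was at 1.36, 1.90 and 1.68 with set 1 and at 1.68, 1.32 and 1.66 with set 2, with no overlap (difference -0.51 ± 0.17, adjusted p = 0.198), but its other probe gave 0.03. Between the siRNA sets, Ephb1, a receptor of B ephrins, was lower with set 2 (2.20, 2.07 and 1.75) than with set 1 (2.34, 2.94 and 2.57), by 0.61 ± 0.19 on the log2 scale (adjusted p = 0.285).

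Among the netrins and netrin-G proteins the largest siRNA differences against the controls that did not overlap were those of Ntn4 and Ntng1. Ntn4, a netrin of basement membranes, was at -4.97, -5.03 and -4.88 on the controls. It was at -4.27, -3.98 and -4.44 with set 1, at -4.64, -4.27 and -4.60 with set 2 and at -4.58, -5.08 and -4.56 with overexpression. All 6 siRNA arrays were above all 3 controls, with a difference of 0.59 ± 0.15 (1.51-fold, adjusted p = 0.122, limma). Ntng1, a lipid-anchored netrin relative that binds the synaptic adhesion protein encoded by Lrrc4c, was at -4.15, -3.93 and -3.86 on the controls and at -3.63, -3.89 and -4.49 with overexpression. With set 1 it was at -4.51, -5.18 and -4.58 and with set 2 at -4.74, -5.09 and -5.03. The siRNA arrays were below all control arrays, by 0.88 ± 0.21 in log2 (54.5% of the control level, adjusted p = 0.0991), and below all overexpression arrays, which were 0.85 ± 0.21 higher (adjusted p = 0.0679). Neither difference passed, but without overexpression replicate 3 the second did (adjusted p = 0.0419). Only these 2 of the 62 genes (3.23%) had all siRNA arrays on the same side of all controls, against 5.33% of all genes.

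Netrin-1, encoded by Ntn1 and the main diffusible ligand of Dcc, separated the siRNA sets. It was at -3.78, -2.75 and -3.69 with set 1 and at -3.83, -4.93 and -4.35 with set 2, and the controls, at -4.14, -3.73 and -3.97, overlapped with both. The sets did not overlap and differed by -0.96 ± 0.35 (adjusted p = 0.38, limma), or by -0.63 without set 1 replicate 2. From the controls, set 1 differed by 0.54 ± 0.35 and set 2 by -0.42 ± 0.35.

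Of the netrin receptors, Unc5b, a repulsive netrin receptor and dependence receptor also known from vessel guidance, gave the largest difference among the guidance genes in the contrast of overexpression with the siRNA sets. It stood at 0.89, 0.66 and 0.93 with overexpression and at -0.61, -0.29 and -0.03 on the controls. Set 1 was at -0.35, -0.24 and -0.31 and set 2 at -0.88, -1.12 and -0.33. The lowest overexpression array, at 0.66, was above the highest of the other 9, at -0.03, and the controls overlapped with both siRNA sets. The difference from the siRNA sets was 1.36 ± 0.18 (3 against 6 arrays; 2.57-fold; adjusted p = 0.00354, limma), and at least 1.26 on each slide. It held in each of 12 fits that left out 1 array. Against the controls Unc5b was 1.14 ± 0.20 higher (2.2-fold), with an adjusted p of 0.0706, and of 0.0377 with the replicate block. It also passed without set 2 replicate 2 or without set 2 replicate 3 (adjusted p = 0.0426 and 0.0223). The siRNA average differed from the controls by -0.23 ± 0.18 (adjusted p = 0.699).

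Endothelial cells also express Unc5b. Of 12 endothelial markers 9 were kept; Tek, Tie1 and Emcn were too dim. Their summed signal was 7.82 to 14.3 on the overexpression arrays, 5.71 to 14.1 on the siRNA arrays and 7.45 to 13.8 on the controls, and 0 of the 9 were called in any comparison. With overexpression, 8 of the 9 were higher than on the controls (median log2 difference 0.43). Against the siRNA sets 7 of the 9 were higher (median 0.17). The part of endothelial cells in the Unc5b difference was not tested. The remaining receptors gave no call. Unc5c was at -5.08, -4.91 and -4.92 with set 1 and at -6.28, -5.28 and -5.39 on the controls, without overlap (difference 0.68 ± 0.26, adjusted p = 0.403, limma). Control replicate 1, at -6.28, was not well above background, and without it the difference was 0.37 (adjusted p = 0.906). With all arrays, a second Unc5c probe gave 0.43 ± 0.28 for set 1 against the controls. Unc5a was 0.84 ± 0.35 above the controls and 0.84 ± 0.31 above the siRNA sets with overexpression (adjusted p = 0.979 and 0.247), with overlapping groups. Dcc and Neo1 differed by 0.10 and -0.15 in the contrast with the siRNA sets. For Dcc the kept probes disagreed between the siRNA sets. The dimmer ones gave 1.03 ± 0.34 and 0.88 ± 0.31 for set 1 against the controls, where the brightest gave -0.07. For set 2 against set 1 they gave -1.18 ± 0.34 and -1.02 ± 0.31, where the brightest gave -0.20. None passed the adjusted test.

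**Figure D3:**
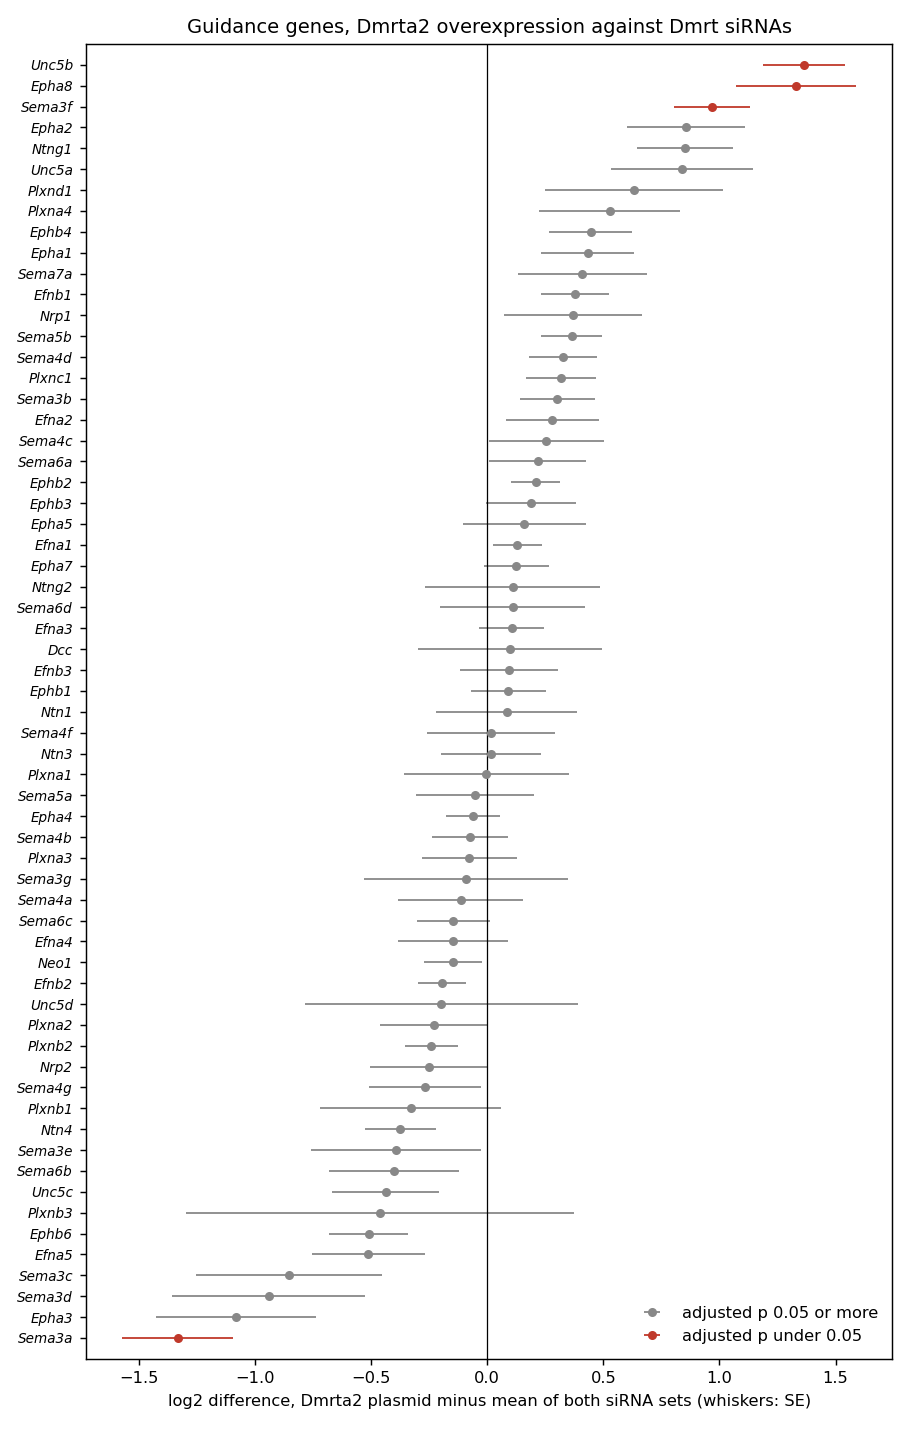
Log2 difference of overexpression from the mean of both siRNA sets for each of the 62 guidance genes, ordered by size (points, with whiskers for the SE from the fit on all 12 arrays); red marks an adjusted p under 0.05. Unc5b (1.36), Epha8 (1.33), Sema3f (0.97) and Sema3a (-1.33) are red, and the values run from Sema3a to Unc5b.

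Slide was a large part of the variation of some guidance genes. For each gene the sum of squares over the 12 arrays was split between groups, slides and the rest. The median guidance gene had 37.0% between groups and 17.5% between slides, against 28.6% and 26.1% over all genes. In 15 of 62 genes (24.2%) the slides held more than 50% of it, as they did in 25.2% of all genes. Sema3g, a secreted class 3 semaphorin, had 96.0% between slides (slide means -4.82, -6.11 and -5.05), and the plexin Plxna1 94.2% (0.46, -0.55 and 0.33). Slide 2 was the low one for both, in every group. In 21 genes (33.9%) the groups held more than 50%, against 23.5% of all genes. Among the 21 is Sema3d (56.4%), which was kept only through the set 1 arrays.

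**Figure D4:**
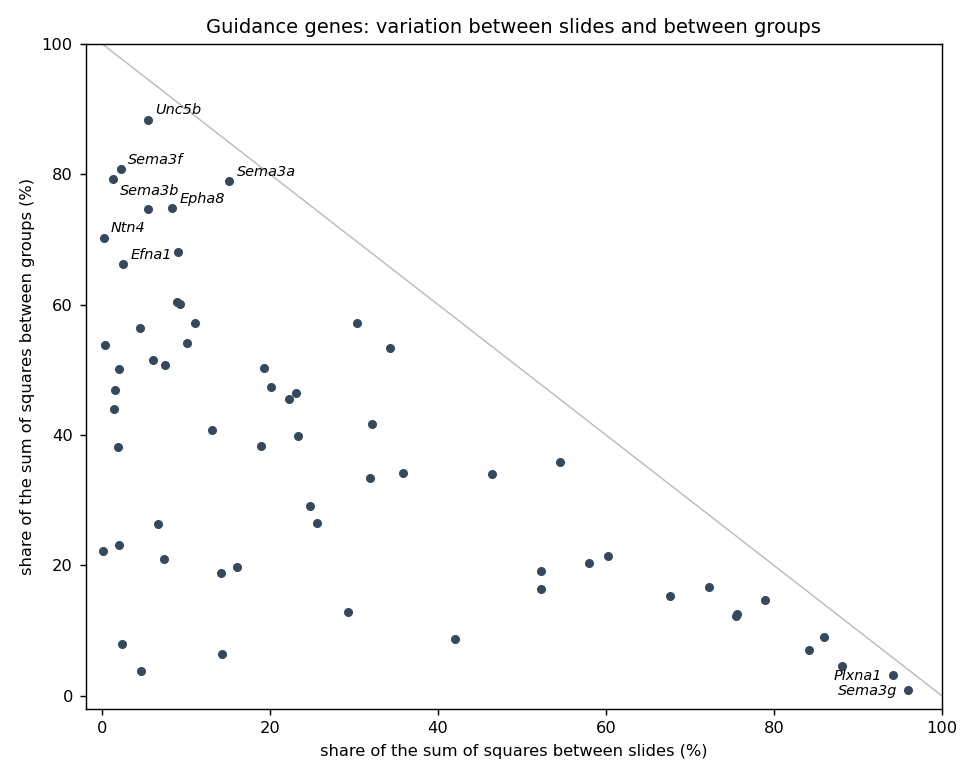
Share of each guidance gene's sum of squares between slides (horizontal axis, %) and between groups (vertical axis, %), 1 point per gene, with the line where both add to 100%. Unc5b, Sema3f and Sema3a lie at the top left, and Sema3g (96.0%) and Plxna1 (94.2%) at the bottom right.

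Signalling partners of the families were followed with 3 lists. Of 24 semaphorin and plexin partners 23 had a kept probe, all but Mical2. In the siRNA average 0 passed (0.703% of all genes), and 1 passed in the contrast of overexpression with the siRNA sets (2.15%). This was Rap1gap, which inactivates the small GTPase Rap1, higher with overexpression by 0.78 ± 0.13 (adjusted p = 0.0151, limma). Farp2, a guanine nucleotide exchange factor acting with plexins, passed with set 2 alone, where 0.943% of all genes did (0.60 ± 0.10 above the controls, adjusted p = 0.032, limma). Farp1 at 0.49 ± 0.12 and Mical1 at -0.38 ± 0.10 missed the threshold in the contrast with the siRNA sets (adjusted p = 0.0661 and 0.0957) and passed it with the slide as a replicate block (0.0239 and 0.021). Mical1 also passed with set 2 under the block (0.38 above the controls, adjusted p = 0.0444). Without the block, 0 of 17 Eph and ephrin partners, all kept, passed outside the contrast with the siRNA sets. In that contrast the phosphatase gene Ptpn13 alone passed (2.15% of all genes), lower by 0.69 ± 0.12 on the log2 scale with overexpression (adjusted p = 0.0182, limma). Adam10, a protease that cleaves ephrins, was at -0.36 ± 0.09 there (adjusted p = 0.0896, or 0.0441 with the replicate block). Tiam1, at -0.55 ± 0.23 from the controls with set 2, also passed under the block alone (adjusted p = 0.0395). Of 18 netrin and neogenin partners, all kept, 0 passed in any comparison, with or without the block. Flrt2, a ligand of Unc5 receptors, was at -0.75 ± 0.22 and its relative Flrt1 at 0.94 ± 0.29 (adjusted p = 0.128 and 0.162).

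Some marker genes of other cell types were called in the same contrast, in which 2.15% of all genes were called. Of 7 surface ectoderm markers, 5 were higher and 2 lower with overexpression than with the siRNA sets, and Krt18 and Grhl3 were called higher. Krt8 was kept only through the 3 overexpression arrays, on which alone it was well above background, so its call is no test. Grhl2, well above background on 5 arrays, also needed the 3 overexpression arrays to be kept. With both genes in it, the list summed to 0.451 to 0.588 on overexpression, 0.141 to 0.285 on siRNA and 0.177 to 0.363 on control arrays. Part of this difference was set by the filter, so the sums are a description without a test. Of 8 Cajal-Retzius markers, all kept, Lhx5, Ebf2 and Cacna2d2 were called higher, with 5 of the 8 higher and 3 lower. Against the controls, Ebf2 alone was called with set 2, where it was lower (adjusted p = 0.0323, limma; 0.943% of all genes). Cacna2d2 alone was called with overexpression, where it was higher (adjusted p = 0.0177, limma, 0.28% of all genes). The list summed to 6.49 to 7.54, 2.24 to 3.64 and 2.42 to 3.49 in the same order of groups. Of 7 choroid plexus markers 5 were kept and Msx1 was called higher, with 3 of the 5 higher and 2 lower, and the sums were 2.27 to 2.67, 1.72 to 4.21 and 1.19 to 1.94. Of 10 neural progenitor markers, all kept, Vim and Pax6 were called lower, but 6 of the 10 were higher and 4 lower, with a median of 0.07. Their sums were 128 to 154, 151 to 175 and 141 to 150.5. With the replicate block the calls in these 4 lists were 4, 2, 1 and 3 (3.45% of all genes). Krt8 and Grhl2 were not taken out of the first of these counts. Of microglial markers, 11 of 12 kept, 5 were called higher than the controls by the siRNA average (0.703% of all genes) and 4 with overexpression (0.28%). With set 2 it was 6 (0.943%) and with set 1 it was 0 (0.215%). Against the controls, 9 of the 11 were higher and 2 lower with the siRNA average, set 2 and overexpression. The median log2 differences were 1.13, 1.64 and 1.56. With set 1, 10 were higher and 1 lower (median 0.63). The sums of linear signal, in which bright markers weigh most, overlapped. They were 13.1 to 24.4 on overexpression, 11.4 to 26.0 on siRNA and 13.8 to 24.6 on control arrays. Between overexpression and the siRNA sets 0 of the microglial markers were called. In that contrast 0 of the kept erythroid, mesenchymal and postmitotic neuron markers were called either. The part of these cells in the differences of Unc5b, Sema3f, Epha8 and Sema3a was not tested.

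Over the 12 arrays the genes whose levels followed Unc5b most closely were Tmc6, Galnt10, Cdh22, Gsg1l and Eya2 (Pearson r from 0.966 to 0.939). Those nearest to Epha8 were Vstm2l, Rap1gap, Ngfr, Cdh22 and Ets2 (0.946 to 0.92). For Sema3f they were Bmp2, Klhdc10, Kif26a, Dab2ip and Fam222a (0.917 to 0.903), and for Sema3a Zfp189, Zmym6, Pdia6, Kctd21 and Baz2b (0.957 to 0.92). The 12 points share groups and slides, so these values describe the arrays only.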

How the data were processed

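Total RNA of sorted cells was hybridised to 12 one-colour Agilent arrays, 3 in each of 4 groups. The authors deposited scanner output with processed signal intensity, made with Agilent Feature Extraction 10.5.1.1 per the submitters' processing notes, and a table of log2 values that, set against the deposited intensity, was scaled to the 75th percentile and centred on each probe's median (array medians -0.131 to 0.0958).

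Here log2 intensity minus each array's 75th percentile was used, without control spots and outlier flags. Probes well above background on at least 3 of 12 arrays were kept, and per gene the brightest. Of 39429 probes, 32334 carried a RefSeq accession and 26055 were named through the RefSeq table (GRCm38.p6). Groups came from the labels, and 12 arrays entered 1 limma fit (3.58.1, R 4.3.3), with p-values adjusted by Benjamini-Hochberg over 15370 genes and a threshold of 0.05; the scripts were tested on simulated data. The members and lists were chosen with earlier results of these data known. Genes given with full values are those past the adjusted threshold in any comparison, those with an unadjusted p under 0.05 and groups that do not overlap, and, for a family with none, the gene with the lowest p.

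Same-numbered arrays shared a slide, per the file headers. Their deviations from the group means correlated at 0.0199 to 0.6, so every pair was positive, though some were under 0.1. The main fit left this pairing out, and the slide entered as a block in an alternative. Other alternatives were quantile scaling, median centring, normexp background correction with an offset of 50 (on the median signal, since no mean signal was given in the files used), the deposited table, other probe filters, other probes, fits on the compared arrays and leaving out each array. The number of arrays limits the precision.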

Additional observations from a re-analysis of the deposited data

How the results depend on the processing

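With the slide as a replicate block, 1 guidance gene passed with both siRNA sets averaged and 1 with set 2 alone (Sema3a each time), and 1 with overexpression against the controls (Unc5b), where none passed without it; the block changed no other call of a guidance gene. Leaving out 1 array at a time gave 0 to 0 calls for the siRNA average, set 1, and set 2 against set 1, 0 to 1 for set 2 and for overexpression against the controls, and 2 to 4 for overexpression against the siRNA sets. Unc5b was the only one of the 4 genes called there in all 12 such fits.

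The normexp correction chosen at the outset gave 29 calls for overexpression against the controls and 34 against the siRNA sets, and over all 15370 genes 9896 and 10678. Its fitted background means were -1436 and -2182 on overexpression replicates 1 and 2 and -218 on set 1 replicate 2, against -12.7 to -5.4 on the other 9 arrays. It moved the median difference of all genes to 0.44 and 0.39 in these contrasts, from 0.01 in both. It turned Sema3a (0.51) and Sema5b (-0.23) in the contrast with the siRNA sets and Ntng1 (0.11) with set 1 the other way. A version with the background taken from negative control spots, chosen after seeing the data, gave 1 call (Unc5b) against the controls and the same 4 against the siRNA sets. A second Ephb6 probe gave 0.032, where the first gave -0.51. The cause of the other changes was not tested.

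Apart from the normexp correction chosen at the outset, 720 of 740 values of the 35 single-gene results kept their direction and their side of the threshold, 11 lost the call, 8 gained it and 1 changed direction. Only Unc5b, Sema3f, Epha8 and Sema3a against the siRNA sets were called at first, so all 11 losses are theirs. The other results count as kept when they stay uncalled, so the 720 does not measure how stable the calls are. Over all genes, set 2 against the controls gave 145 calls, 50 with median centring, 26 without the filter on dim probes and 362 with the block. The siRNA average gave 108, 55, 37 and 234 in the same order, set 1 gave 33, 14, 26 and 115, and overexpression against the siRNA sets gave 331, 235, 246 and 530. With only the compared arrays in the fit these counts were 0, 36, 0 and 254. Signals near background limit Sema3d, Plxnb3, Sema3e, Unc5d and Unc5c.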
